A study of Mus musculus with 6 samples.

Results

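Small nucleolar RNAs, small Cajal body RNAs and the long noncoding genes named as hosts of such RNAs were examined in murine CD4 T cells. Members are genes of the deposited count table whose symbol starts with Snora, Snord, Scarna or Snhg, plus Gas5, with at least 10 counts summed over all 6 libraries. Of 129 genes with such a symbol among the 56748 genes of the table, 51 were members, namely 39 small RNAs and 12 long host genes. The annotation used here shows no small nucleolar RNA inside Snhg5, Snhg10 or Snhg20, which are counted as hosts by symbol. The small RNAs were 12 Snora, 24 Snord and 3 Scarna genes. Because the counts chose the members, the level of a member is a description and supports nothing by itself.

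Naïve CD4 cells of WT C57BL/6 mice aged 6 to 10 weeks were cultured for 72 hr under Treg polarizing conditions, which the paper describes as plate-bound anti-CD3 at 2 μg/mL, anti-CD28 at 2 μg/mL, IL-2 at 10 ng/mL, TGF-β at 1 ng/mL and antibodies to IFNγ and IL-4 at 5 μg/mL each. Antisense oligonucleotides (ASOs), synthetic single strands made to pair with a target RNA, were in the medium at 10 μM from the start, with a scrambled sequence in 3 cultures and sequences against Pgam in 3 cultures. The cells were not sorted, so every library is a mixture of whatever grew. The comparison asks which RNAs differ when the glycolytic enzyme phosphoglycerate mutase is targeted, and the paper calls its replicates biological. Where nothing ties a library to its own animal, p-values measure only the spread between these libraries.

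Most small nucleolar RNAs of mammals are cut out of the introns of a host gene after splicing. Box C/D RNAs guide 2′-O-methylation and box H/ACA RNAs guide pseudouridylation of ribosomal and spliceosomal RNA, and the Cajal body RNAs do the same for spliceosomal RNAs. Many hosts encode ribosomal proteins or translation factors, whereas the Snhg genes and Gas5 code for no known protein from their spliced RNA, which is often destroyed by nonsense-mediated decay. Mature small nucleolar RNAs have no poly(A) tail, and the libraries were labelled polyA RNA. The columns used for extraction also retain short RNA poorly, so the counts below do not measure the mature pool.

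The sequences of 7 small RNAs are shown. Of these, 4 come from the 6 most counted small RNAs, and 3 are small RNAs inside Gas5, Snhg1 and Snhg6 whose count was 0 in every library. Capitals mark the boxes that a search of the given strand found, namely TGATGA in the 5′ part (box C) and CTGA near the 3′ end (box D), or ANANNA near the middle (box H) and ACA near the 3′ end.
Snora57: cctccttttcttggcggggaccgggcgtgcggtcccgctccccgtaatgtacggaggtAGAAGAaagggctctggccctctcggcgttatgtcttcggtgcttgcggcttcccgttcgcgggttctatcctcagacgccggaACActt
Snord43: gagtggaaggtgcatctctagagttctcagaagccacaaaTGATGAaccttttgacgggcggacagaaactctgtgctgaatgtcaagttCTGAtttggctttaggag
Snora31: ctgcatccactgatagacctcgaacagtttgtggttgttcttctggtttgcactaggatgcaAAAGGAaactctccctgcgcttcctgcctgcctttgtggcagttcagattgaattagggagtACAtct
Snord53: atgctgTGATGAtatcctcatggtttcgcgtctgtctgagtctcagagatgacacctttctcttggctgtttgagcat
Snord47: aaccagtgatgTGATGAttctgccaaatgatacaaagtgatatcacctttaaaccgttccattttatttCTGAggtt
Snord22: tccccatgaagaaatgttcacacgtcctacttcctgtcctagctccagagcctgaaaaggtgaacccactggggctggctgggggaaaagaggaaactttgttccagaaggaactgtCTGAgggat
Snord87: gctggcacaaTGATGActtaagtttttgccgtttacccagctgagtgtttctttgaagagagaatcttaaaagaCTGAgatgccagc

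On GRCm38, Snora57 (ENSMUSG00000070167) lies at chr19:8888538-8888685 on the minus strand, with no annotated host on its strand and Lbhd1 on the other. Snord43 (ENSMUSG00000105167) lies at chr15:80082847-80082954 on the minus strand, in an intron of the ribosomal protein gene Rpl3. The annotation gives this entry of 108 bases the type miRNA. Snora31 (ENSMUSG00000065147), at chr14:75847905-75848034 on the plus strand, is in an intron of Tpt1, which encodes translationally controlled tumor protein. Snord53 (ENSMUSG00000092887), at chr17:71640879-71640956 on the plus strand, is in an intron of Wdr43, a gene for a ribosome assembly protein. Among the silent RNAs, Snord47 (ENSMUSG00000064968) is at chr1:161038082-161038158 on the plus strand, Snord22 (ENSMUSG00000065087) at chr19:8725866-8725991 on the plus strand and Snord87 (ENSMUSG00000093178) at chr1:9942463-9942549 on the minus strand.

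Boxes C and D were both found in 47 of 70 Snord sequences of the annotation (67.1%), in 0 of 37 Snora sequences and in 2 of 3454 other short RNAs of 60 to 160 bases (0.0579%). Boxes H and ACA were both found in 32 of 37 Snora sequences (86.5%), in 2.86% of Snord sequences and in 4.69% of the other short RNAs. The names therefore go with the boxes for most Snora and Snord genes, and a missing match says only that these letters are not in that window. Of 6 Scarna sequences, 4 held boxes C and D (66.7%) and 1 held boxes H and ACA (16.7%).

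Replicates 1, 2 and 3 labelled scrambled ASO held 17588755, 18032805 and 16231127 counts in all, and the same numbers labelled Pgam ASO held 16589933, 15860476 and 16803881. A floor of 3 counts in a library corresponds to between 0.162 and 0.192 CPM, the count scaled to a fixed library size, and covers counting error only. The targeted genes did not separate the groups. Pgam1, which encodes the main phosphoglycerate mutase of lymphocytes, had 10655, 8847 and 11414 counts in the scrambled group, against 10601, 10299 and 11949 with the label Pgam ASO. Its log2 fold change was 0.18 ± 0.13 (SE, adjusted p = 0.331, edgeR quasi-likelihood test with Benjamini-Hochberg adjustment over all 14936 tested genes, 3 against 3 libraries). Pgam2, the muscle form, had 93, 125 and 46 counts against 48, 42 and 44, with a log2 fold change of -0.84 ± 0.31 (adjusted p = 0.0854, same edgeR test with Benjamini-Hochberg adjustment). Pgam2 passed without a filter on low counts (adjusted p = 0.0292) and without replicate 3 labelled scrambled ASO (adjusted p = 0.0144, both edgeR with Benjamini-Hochberg adjustment), and Pgam1 in no fit. With the filter and all libraries neither gene passed the threshold of 0.05, so groups are named below by their labels, and every direction is that of the libraries labelled Pgam ASO over those labelled scrambled ASO. In bulk libraries such as these, less RNA per cell and fewer cells with that RNA cannot be told apart.

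All 12 long host genes passed the filter on low counts. Per kilobase of the median annotated transcript, Gas5 was the most abundant at 361 ± 53.4 CPM (SD over 6 libraries), followed by Snhg1 at 160 ± 31.8 and Snhg6 at 94.4 ± 24.2 CPM per kilobase. Snhg5 (68.6 ± 6.67), Snhg17 (56.7 ± 11.7) and Snhg15 (55.3 ± 6.93) came next, and Snhg17 and Snhg15 lay within their spread of each other. These SDs span both groups. Snhg14, a long transcript of the imprinted Ube3a region, stood at 4.52 ± 0.800 CPM per kilobase, and Snhg10 was the lowest at 2.10 ± 0.684.

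**Figure D1:**
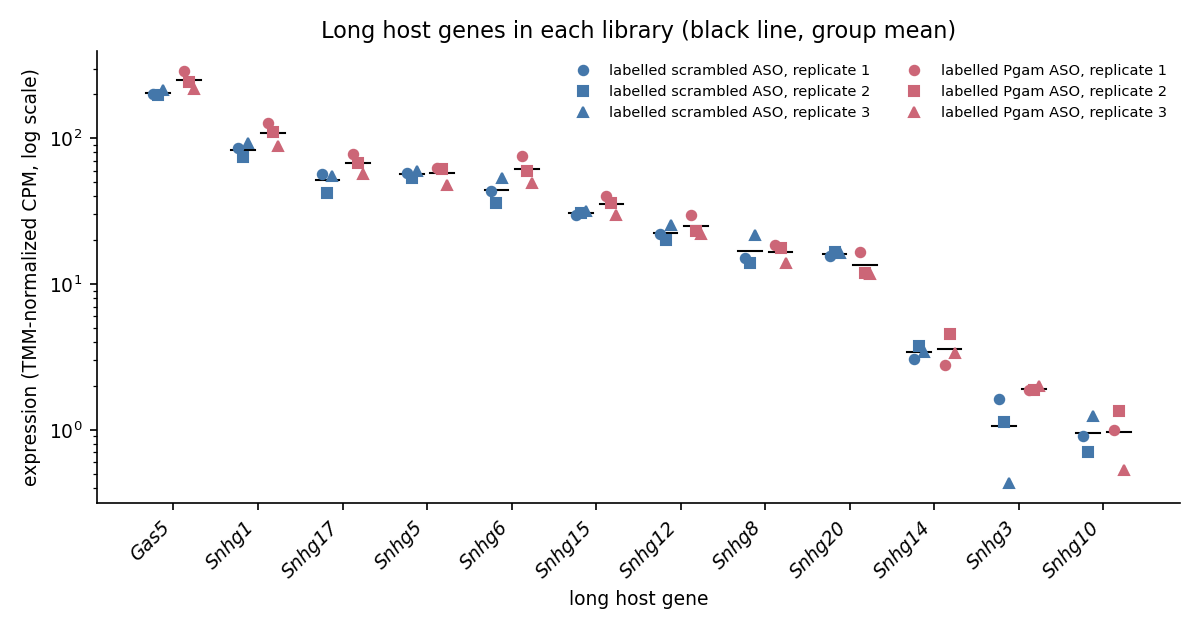
Expression of the 12 long host genes in TMM-normalized CPM (log axis) in each library, with the libraries labelled scrambled ASO in blue, those labelled Pgam ASO in red, replicates by marker shape and group means as black lines. Gas5 and Snhg3 are the genes whose groups do not overlap, and replicate 1 labelled Pgam ASO is the highest of the 6 libraries for 8 of the 12 genes.

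Gas5 (chr1:161034422-161038539, plus strand) hosts a series of box C/D RNAs, and its spliced RNA was named for its rise in growth-arrested cells. The libraries labelled scrambled ASO had 3580, 3689 and 3437 Gas5 counts, against 4640, 3770 and 3709 with the label Pgam ASO. Its level was 205 ± 7.36 CPM (SD, n = 3) against 250 ± 35.0 CPM, and the groups did not overlap. The spread in the libraries labelled Pgam ASO came mainly from replicate 1. Its log2 fold change was 0.29 ± 0.10 (SE, adjusted p = 0.0801, edgeR with Benjamini-Hochberg adjustment).

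Snhg1 (chr19:8723475-8726443, plus strand) had 1512, 1370 and 1487 counts against 2039, 1728 and 1495, which is 83.7 ± 9.15 against 109 ± 19.2 CPM (SD, n = 3 each). Replicate 3 labelled Pgam ASO lay within the range of the other group. Snhg6 (chr1:9941959-9944118, minus strand), the host of Snord87, had 775, 667 and 856 counts against 1207, 930 and 834, again with replicate 3 labelled Pgam ASO inside the other group's range. Snhg17 (chr2:158353700-158361580, minus strand) had 1018, 774 and 886 counts against 1254, 1049 and 958. The log2 fold changes were 0.38 ± 0.13 for Snhg1 (adjusted p = 0.0742), 0.47 ± 0.17 for Snhg6 (adjusted p = 0.0872) and 0.39 ± 0.14 for Snhg17 (adjusted p = 0.0849), all by edgeR with Benjamini-Hochberg adjustment.

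Other long hosts showed smaller differences or fewer counts. Snhg5 had 1021, 990 and 961 counts against 1000, 967 and 809, with a log2 fold change of 0.01 ± 0.11. Its sign turned with library size alone. The log2 fold changes were 0.20 ± 0.12 for Snhg15, 0.14 ± 0.14 for Snhg12 and -0.27 ± 0.16 for Snhg20, none of which passed the threshold. Snhg8, host of Snora24, gave -0.02 ± 0.18, Snhg14 gave 0.07 ± 0.26 and Snhg10 gave 0.02 ± 0.44. Snhg3 had 29, 21 and 7 counts against 30, 29 and 34, with the lowest value in replicate 3 labelled scrambled ASO and a log2 fold change of 0.83 ± 0.42 (adjusted p = 0.195, edgeR with Benjamini-Hochberg adjustment). Snhg3 shares 60.7% of its 31-base stretches with Gm17300, a noncoding gene on the opposite strand, which rose by 0.81 ± 0.24 (adjusted p = 0.0451, edgeR with Benjamini-Hochberg adjustment) and was looked at after the values of Snhg3 were seen. With 1 library left out in turn, Gm17300 passed in 2 of 6 fits. Whether counting used strand is not stated, so reads of a gene and its antisense partner cannot be told apart. The same holds for Gas5 beside Zbtb37, Snhg6 beside Mcmdc2 and Snhg14 beside Ube3a.

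With edgeR and Benjamini-Hochberg adjustment, 0 of the 12 long host genes passed the threshold in either direction, where 8.03% of all tested genes were called higher and 9.15% lower. At an unadjusted p under 0.05, 4 were higher (Gas5, Snhg1, Snhg6 and Snhg17) and 0 lower, against 17.2% of all tested genes called higher at that p and 34.9% called in either direction. DESeq2 called 2 higher, Snhg1 and Snhg6, and 0 lower (10.4% of all tested genes called higher), and limma-voom called 0 higher (7.99% of all tested genes). Without a filter on low counts edgeR called 4 higher (6.43% of 28512 genes). The groups did not overlap for 2 of 12, both higher, beside 19.6% of all tested genes. In all, 10 of the 12 log2 fold changes were above 0, with a median of 0.17, while 7378 of 14936 tested genes were above 0 and their median was -0.01. Without replicate 3 labelled Pgam ASO, edgeR called 4 higher, the same 4 genes as above, beside 10.2% of all genes tested there. Without replicate 3 labelled scrambled ASO it called Snhg6 alone, beside 1711 of 15508 genes tested there (11.0%).

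The summed level of the 12 long hosts was 533, 491 and 573 CPM with the label scrambled ASO, against 740, 638 and 545 CPM with the label Pgam ASO. The means were 532 ± 40.8 and 641 ± 97.5 CPM (SD, n = 3 each), a log2 ratio of 0.27, and replicate 3 labelled Pgam ASO lay within the other group's range. Gas5 holds the largest share of this sum, and without it the log2 ratio was 0.25. Replicate 1 labelled Pgam ASO was the highest of all 6 libraries for 8 of the 12 genes (66.7%), beside 25.3% of all tested genes, and replicate 3 was the lowest of the 3 libraries labelled Pgam ASO for 10 of the 12 (83.3%), beside 37.9%.

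For 11 of the 12 long hosts RefSeq gives a start site, and a start on C followed by at least 4 further pyrimidines, as in mRNAs whose translation follows growth signals, was searched for there. It was found in 2 of the 11 genes (18.2%), beside 3.01% of all 27025 genes with a promoter in the same table and 1 of 23 protein-coding hosts of members (4.35%). It was found in 0 of 7 ribosomal protein hosts, whose mRNAs are known for such starts, so the rule misses genes of this kind at the listed starts. The lines below show 10 bases before and 20 bases from the start, with the pyrimidine run in capitals where the rule was met, for both matches and for Snhg1, whose start has a shorter run.
Gas5: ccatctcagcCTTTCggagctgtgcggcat
Snhg8: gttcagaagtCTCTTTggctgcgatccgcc
Snhg1: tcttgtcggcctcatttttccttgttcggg
These windows lie at chr1:161035156-161035185 (plus), chr3:123508317-123508346 (minus) and chr19:8723477-8723506 (plus) on GRCm38.p6, and the Gas5 line belongs to the second of its listed starts. The log2 fold changes of the matching genes, 0.29 for Gas5 and -0.02 for Snhg8, had no common direction.

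The small RNAs gave far fewer counts, from 0 to 65 in a library, and 7 of the 39 had a count of 0 in at least 1 library. The filter on low counts kept 19 of the 39, so the values that follow are not those of all members. The most counted was Snora57, a box H/ACA RNA with 237 counts in all. Its counts were 31, 25 and 29 with the label scrambled ASO and 55, 55 and 42 with the label Pgam ASO, or 1.63 ± 0.244 against 3.14 ± 0.573 CPM (SD, n = 3 each). All 3 libraries labelled Pgam ASO were above all 3 of the other group.

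Snora57 rose, with a log2 fold change of 0.95 ± 0.28 (SE, adjusted p = 0.0450, edgeR with Benjamini-Hochberg adjustment, higher in 3 of 3 libraries). The call was close to the threshold. With 1 library left out in turn, the adjusted p of edgeR with Benjamini-Hochberg adjustment ran from 0.0311 to 0.160 and passed in 1 of 6 fits, that without replicate 3 labelled Pgam ASO, and among the other tools and scalings it did not pass with limma-voom or with library size alone. With replicate number as a block it did not pass either (adjusted p = 0.0973, edgeR with Benjamini-Hochberg adjustment). Snora57 shares 29.7% of its 31-base stretches with Gm26132, which had 13 counts in all. Lbhd1, on the opposite strand, gave 0.26 ± 0.19.

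Snord43, in an intron of Rpl3, had 32, 26 and 21 counts against 65, 57 and 32. Its level in the libraries labelled Pgam ASO was 3.20 ± 1.14 CPM (SD, n = 3), and the lowest library labelled Pgam ASO, replicate 3, was only just above the highest of the other group. The log2 fold change was 1.08 ± 0.34 (adjusted p = 0.0540, edgeR with Benjamini-Hochberg adjustment), and DESeq2 gave an adjusted p of 0.0334 with the same kind of adjustment.

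**Figure D2:**
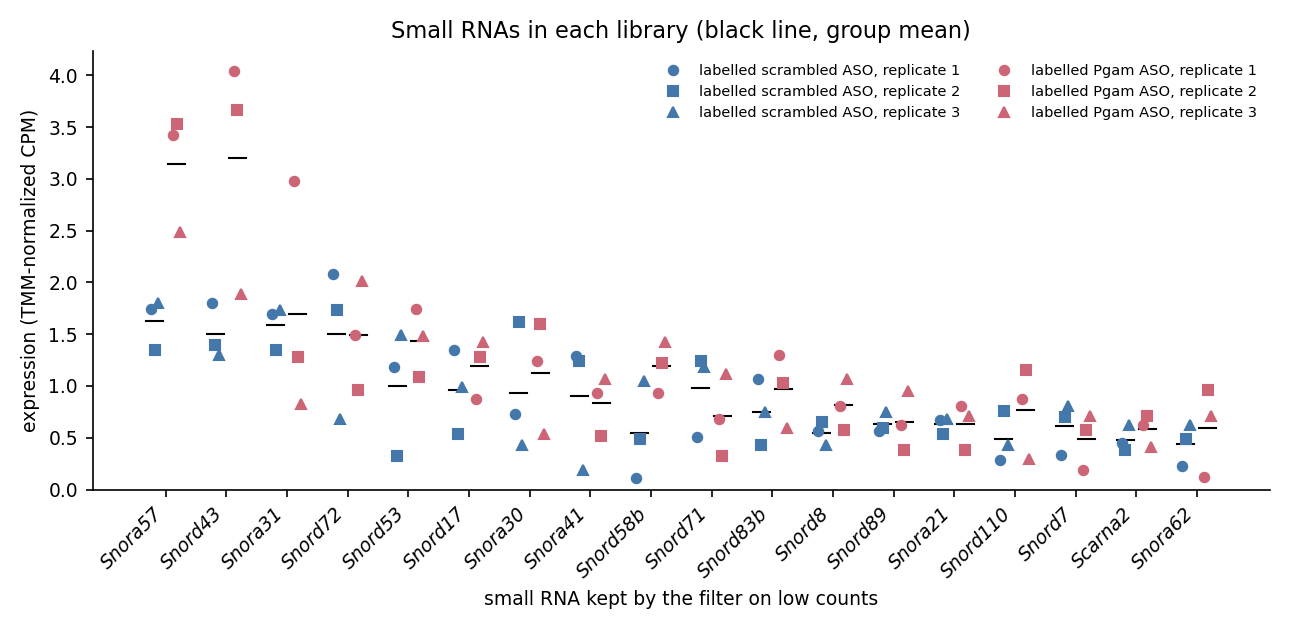
Expression of 18 of the 19 small RNAs kept by the filter on low counts, in TMM-normalized CPM, in each library, with the libraries labelled scrambled ASO in blue, those labelled Pgam ASO in red and group means as black lines. Snora57 and Snord43 are separated by group, and for the other 16 the libraries of both groups overlap.

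For the small RNAs that follow, the libraries of both groups overlapped. Snora31, in an intron of Tpt1, had 30, 25 and 28 counts against 48, 20 and 14, so that the libraries labelled Pgam ASO held both the highest and the lowest value. Snord72, in the ribosomal protein gene Rpl37, had 37, 32 and 11 counts against 24, 15 and 34. Both groups were spread widely, and the log2 fold changes were 0.09 ± 0.45 for Snora31 and -0.01 ± 0.45 for Snord72. Snord53 had 21, 6 and 24 counts against 28, 17 and 25 (0.54 ± 0.49). Snord17, in Snx5, gave 0.31 ± 0.42, Snora30, in the chromatin remodeller gene Srcap, 0.25 ± 0.55, and Snora41, in the elongation factor gene Eef1b2, -0.13 ± 0.60. Snord58b, in the ribosomal protein gene Rpl17, had 2, 9 and 17 counts against 15, 19 and 24 (1.13 ± 0.59), with replicate 1 labelled scrambled ASO under the floor of 3 counts. With 1 library left out in turn, the log2 fold change of Snord58b ran from 0.64 to 1.96. It passed in 1 of 6 fits, that without replicate 3 labelled scrambled ASO (adjusted p = 0.0475, edgeR with Benjamini-Hochberg adjustment). Snord71, in the adaptor subunit gene Ap1g1, had 9, 23 and 19 counts against 11, 5 and 19 (-0.44 ± 0.53).

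Of the 19 small RNAs kept, edgeR with Benjamini-Hochberg adjustment called 1 higher and 0 lower, where 8.03% of all tested genes were called higher and 9.15% lower. At an unadjusted p under 0.05, 2 were higher and 0 lower (17.2% and 17.7% of all tested genes). DESeq2 gave an adjusted p to 12 of the 19 and to 14067 of the 14936 genes, and called 2 higher and 0 lower (10.4% and 11.1% of the 14936). Limma-voom called 0 higher (7.99%). The log2 fold changes ran from -0.44 to 1.13 with a median of 0.31, and 15 were above 0 and 4 below. A kept gene needs counts in at least 1 group, so this median does not describe all 39. Over all 39, the mean CPM was higher in the libraries labelled Pgam ASO for 24 and lower for 15. Of the 19 kept, 2 were higher with no overlap between groups (Snora57 and Snord43) and 0 lower, beside 19.6% and 19.8% of all tested genes. Of those the filter removed, Snord91a was higher and Scarna8 lower with no overlap. Both, named after their values were seen, had 45 and 27 counts in all. Without the filter their adjusted p was 0.222 and 0.701 (edgeR with Benjamini-Hochberg adjustment).

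Summed over the 39 small RNAs, the level was 24.8, 22.7 and 22.0 CPM with the label scrambled ASO, against 32.6, 29.9 and 27.7 CPM with the label Pgam ASO. All libraries labelled Pgam ASO were above all of the other group, with means of 23.2 ± 1.43 and 30.1 ± 2.46 CPM (SD, n = 3 each) and a log2 ratio of 0.38. Without Snora57 the sums remained apart, at 21.5 ± 1.41 and 26.9 ± 2.05 CPM, with a log2 ratio of 0.32. As a sum over members chosen by these counts, it has no test.

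Just inside the threshold of 10 counts were Snord35a, with 10 counts in all, and Snord11, Snord37 and Snord92, with 11 each. Just outside were Snhg9 and Snora2b with 9 and Snord59a with 8. In these genes a library held between 0 and 7 counts.

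**Figure D3:**
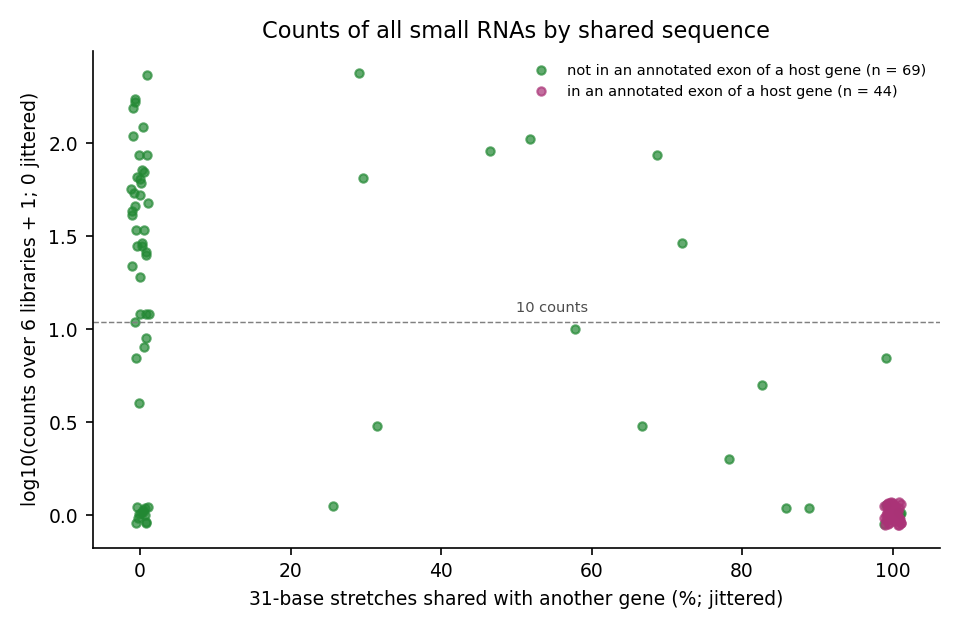
Each point is 1 of the 113 small RNA genes in the table, placed by the percentage of its 31-base stretches that occur in another gene and by log10 of its counts over 6 libraries plus 1, with purple for genes inside an annotated exon of a host gene. Points are jittered sideways, and those at 0 counts also up and down. All 44 purple points belong to genes at 100% and 0 counts, and the dashed line marks 10 counts.

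Kallisto assigns reads through stretches of 31 bases and has to divide reads between genes that share them, so the 113 small RNAs named in the table were set beside the transcripts of the GENCODE M21 annotation. Of the 64 with a count of 0 in every library, 49 share all of their 31-base stretches with another gene, and 44 of these lie in an annotated exon of their host, which for 31 of the 44 belongs to a retained-intron transcript. Of the 39 members, 0 share all such stretches, 33 share none, 6 share a part of up to 71.3%, and 0 lie wholly within a host exon. The 71.3% belongs to Snora15, with 28 counts, and its own host Cct6a, with 43824. Among the 10 with 1 to 9 counts, 1 shares all, 4 share none and 5 share a part. A count of 0 for a small RNA such as Snord47, whose every 31-base stretch is also in Gas5, or Snord22, likewise in Snhg1, thus cannot be told apart from reads given to the host. Snord87 shares no stretch and was still at 0, as were 12 of the 64 in all. Reads of an unspliced host that fall in a small RNA would be counted for the small RNA, and their part in the counts was not tested.

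Each small RNA was given 1 host, the gene with the most counts where several on its strand contain it. So assigned, the long hosts held 11 of the 64 silent small RNAs and 0 of the 39 members. Snora73a and Snora73b, silent too, lie inside both Snhg3 and Rcc1 and were given to Rcc1. Members sat instead in protein-coding genes (33 of 39), in genes not annotated as protein-coding (4), or in no annotated host (2, Snora57 and Scarna2). The 33 had 29 distinct protein-coding hosts, since Rpl3, Rpl13a, Nop58 and Wdr43 each held a pair, and 11 of the 29 encode ribosomal proteins. Of these hosts, edgeR with Benjamini-Hochberg adjustment called 2 higher and 1 lower, against 8.03% and 9.15% of all tested genes, and the median log2 fold change was 0.06.

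Tsr1, a ribosome assembly factor that holds Snord91a, had 919, 831 and 798 counts against 1243, 1100 and 981, and all libraries labelled Pgam ASO were above the other group. It rose by 0.49 ± 0.12 (adjusted p = 0.0213, edgeR with Benjamini-Hochberg adjustment). Ipo7, a nuclear import receptor that holds Snora23, had 4604, 3816 and 4293 counts against 5865, 5689 and 4986 and rose by 0.49 ± 0.12 (adjusted p = 0.0256, same edgeR test with Benjamini-Hochberg adjustment). Tpt1 had 34317, 37939 and 32479 counts against 24940, 25732 and 28086, with no overlap, and fell by 0.30 on the log2 scale (SE 0.07, adjusted p = 0.0253, edgeR with Benjamini-Hochberg adjustment). At an unadjusted p under 0.05, 8 hosts were higher and 1 lower, beside 17.2% and 17.7% of all tested genes. Tsr1, Ipo7 and Tpt1 each lost the call without replicate 1 of either label and without replicate 2 labelled Pgam ASO, where the adjusted p of edgeR with Benjamini-Hochberg adjustment went up to 0.104, 0.122 and 0.110.

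Rpl3 carries both Snord43 and Snord83b. Its counts were 32793, 31509 and 31957 against 31610, 31032 and 32980, nearly level, with a log2 fold change of 0.10 ± 0.08, while Snord43 gave 1.08 ± 0.34 and Snord83b 0.38 ± 0.47. Tpt1 gave -0.30 ± 0.07 beside 0.09 ± 0.45 for its guest Snora31. Wdr43 gave 0.41 ± 0.13 and Snord53 0.54 ± 0.49. The difference between a small RNA and its host was not tested for any pair.

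**Figure D4:**
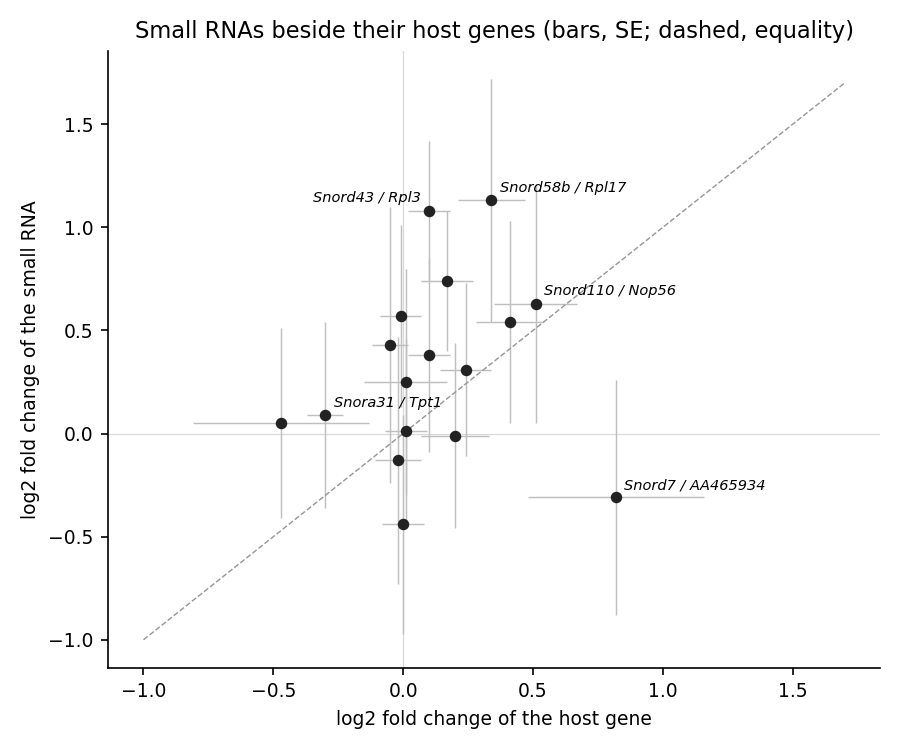
Log2 fold change of each tested small RNA (vertical axis) against that of its host gene (horizontal axis) for 17 pairs, with bars for SE and a dashed line of equality. The vertical bars, with a median SE of 0.47, are longer than the horizontal bars, with a median of 0.10.

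Among 17 tested pairs, 11 had the same sign and 6 opposite signs, and the small RNA was above its host in 12 and below in 5. The host had a median of 411 times the counts of its guest. The median SE was 0.47 for the small RNAs and 0.10 for the hosts. Among 31 protein-coding hosts of the other small RNAs, 30 were tested, and 5 were called higher (Rcc1, Tbrg4, Eif4g1, Atp5b and Rbmx) and 0 lower by edgeR with Benjamini-Hochberg adjustment, beside 8.03% and 9.15% of all tested genes. At an unadjusted p under 0.05, 8 were higher and 1 lower (17.2% and 17.7% of all tested genes), and DESeq2 called 6 higher and 0 lower (10.4% and 11.1%).

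Hosts that are not annotated as protein-coding and are not members numbered 12, of which 10 were tested. The others, Snhg9 and Snhg18, had 9 and 0 counts in all. This group was looked at after values of the data were known. AC121821.1 had 476, 417 and 462 counts against 750, 579 and 578, and rose by 0.60 ± 0.14 (adjusted p = 0.0213, edgeR with Benjamini-Hochberg adjustment). 1810032O08Rik, also called Snhg16, had 256, 247 and 219 counts against 352, 290 and 287, and rose by 0.48 ± 0.13 (adjusted p = 0.0372, edgeR with Benjamini-Hochberg adjustment). Cct6a, a chaperonin subunit gene whose entry in the annotation is a processed transcript, rose by 0.54 ± 0.15 (adjusted p = 0.0400, edgeR with Benjamini-Hochberg adjustment). In each of the 3 the groups did not overlap. Of the 10 tested, 4 were higher and 1 lower with no overlap, beside 19.6% and 19.8% of all tested genes. With 1 library left out in turn, the call held in 3 of 6 fits for AC121821.1, in 1 for 1810032O08Rik and in 2 for Cct6a. Of the rest, Zfas1 gave 0.08 ± 0.10 and Dancr 0.12 ± 0.23, and 0 of the 10 were called lower by edgeR, with 1 at an unadjusted p under 0.05 and 0 by DESeq2. The 3 called higher and 0 called lower stand beside 8.03% and 9.15% of all tested genes.

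Proteins bind small nucleolar RNAs in sets that differ by box. Box C/D RNAs are bound by fibrillarin (Fbl), the methyltransferase, with Nop56, Nop58 and Snu13, and box H/ACA RNAs by dyskerin (Dkc1), the pseudouridine synthase, with Nhp2, Nop10 and Gar1. Fbl had 2506, 2197 and 2469 counts with the label scrambled ASO and 3426, 3064 and 2869 with the label Pgam ASO, or 138 ± 17.4 against 193 ± 21.7 CPM (SD, n = 3 each). It rose by 0.49 ± 0.12 (adjusted p = 0.0225, edgeR with Benjamini-Hochberg adjustment), with no overlap. Snu13 rose by 0.47 ± 0.11 (adjusted p = 0.0239, edgeR with Benjamini-Hochberg adjustment), also with no overlap. Nop56 had 5279, 4244 and 5284 counts against 7650, 6518 and 5419 and did not pass.

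Gar1 had 754, 635 and 795 counts against 1230, 1136 and 955, and every library labelled Pgam ASO was above the other group. It rose by 0.71 ± 0.15 (adjusted p = 0.0153, edgeR with Benjamini-Hochberg adjustment). Dkc1 had 2323, 1960 and 2227 counts against 3184, 2705 and 2327, with a log2 fold change of 0.44 ± 0.14 that did not pass. Nhp2 gave 0.54 ± 0.21 and Nop10 0.17 ± 0.12. Thus 3 of the 8 core proteins were called higher by edgeR, beside 8.03% of all tested genes. DESeq2 called 4 of the 4 box C/D and 3 of the 4 box H/ACA proteins higher, beside 10.4%. All 8 were above 0, and in all 8 replicate 1 labelled Pgam ASO was the highest library and replicate 3 the lowest of the 3 labelled Pgam ASO. Fbl and Gar1 lost the call without replicate 1 of either label and without replicate 2 labelled Pgam ASO, with adjusted p up to 0.104 and 0.0870 (edgeR with Benjamini-Hochberg adjustment). Snu13 lost it there and without replicate 2 labelled scrambled ASO, up to 0.113.

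**Figure D5:**
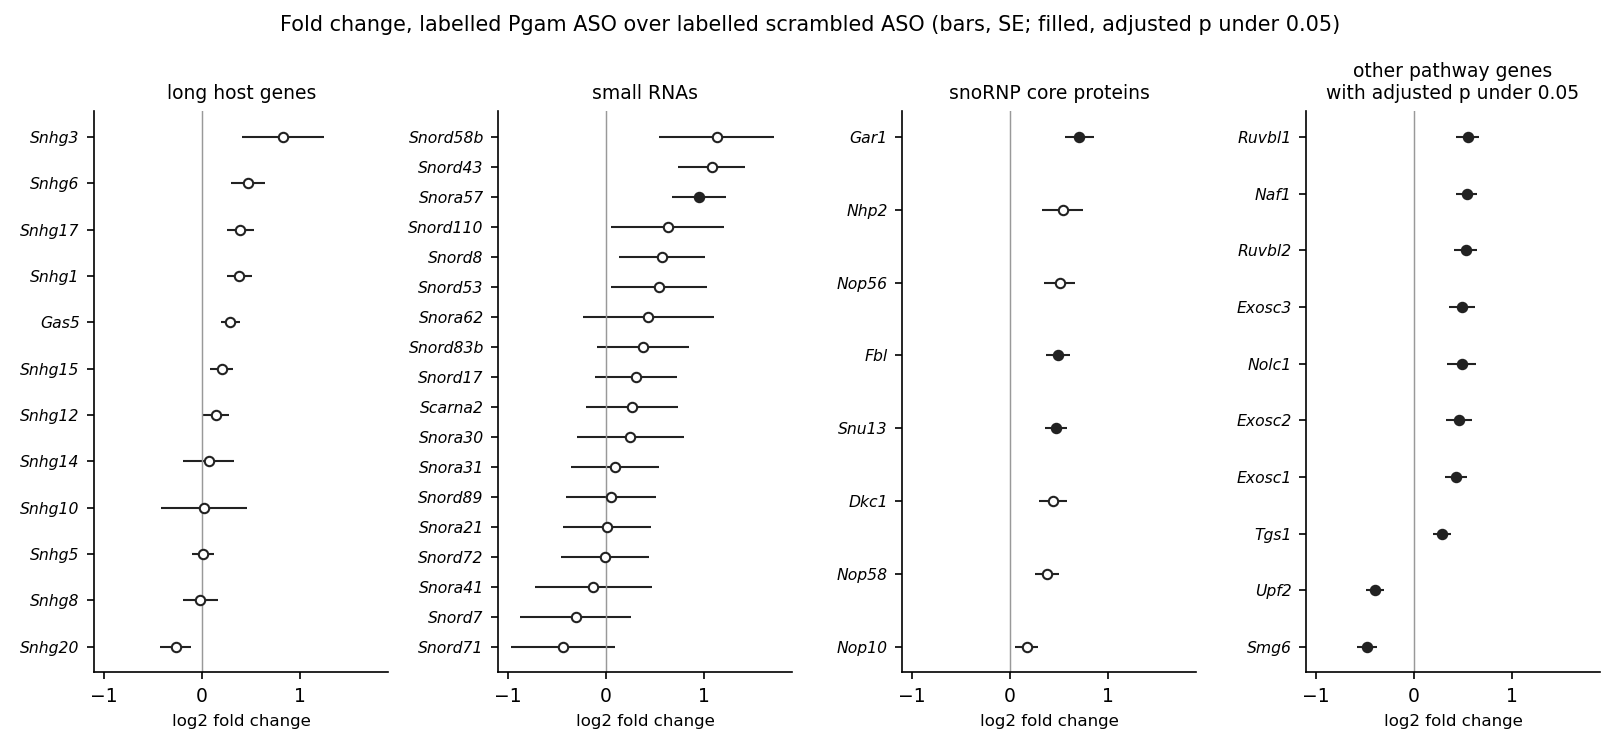
Log2 fold change (horizontal axes) of long host genes, 18 of the 19 tested small RNAs, core proteins of small nucleolar ribonucleoproteins (snoRNPs) and the other pathway genes with an adjusted p under 0.05, with bars for SE and filled points for an adjusted p under 0.05. All 8 core proteins are above 0 and 3 are filled, 1 small RNA is filled, and 0 long hosts are.

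Of 10 assembly factors, which help the core proteins onto a new RNA, 4 rose and 0 fell by edgeR with Benjamini-Hochberg adjustment, beside 8.03% and 9.15% of all tested genes. The paired ATPase genes Ruvbl1 (0.55 ± 0.12) and Ruvbl2 (0.53 ± 0.12) were among them, with Naf1, an H/ACA assembly factor (0.54 ± 0.11), and Nolc1, a nucleolar chaperone (0.49 ± 0.15). Ruvbl1 had 1241, 1048 and 1165 counts against 1737, 1532 and 1423. All 10 were above 0, with a median of 0.40. Of 6 Cajal body factors, Tgs1, which trimethylates the cap of small RNAs, rose by 0.29 ± 0.09 (adjusted p = 0.0489, edgeR with Benjamini-Hochberg adjustment). Coil, the marker protein of that body, gave 0.16 ± 0.11.

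Of 16 nucleases and exosome subunits, 3 rose and 0 fell, beside the same 8.03% and 9.15% of all tested genes, namely Exosc3 (0.49 ± 0.13), Exosc2 (0.46 ± 0.13) and Exosc1 (0.43 ± 0.11), subunits of the complex that trims the 3′ ends of small nucleolar RNAs. Of 10 factors of nonsense-mediated decay, 0 rose and 2 fell by edgeR. At an unadjusted p under 0.05, 2 were higher and 3 lower (17.2% and 17.7% of all tested genes), and DESeq2 called 0 higher and 2 lower (10.4% and 11.1%). Smg6, the endonuclease of that pathway, had 1345, 1499 and 1077 counts against 812, 815 and 976 and fell by 0.48 on the log2 scale (SE 0.10, adjusted p = 0.0146, edgeR with Benjamini-Hochberg adjustment). Upf2, which joins the decay factors to the exon junction complex, had 1391, 1711 and 1312 counts against 1033, 1006 and 1048 and fell by 0.40 (SE 0.09, adjusted p = 0.0181, edgeR with Benjamini-Hochberg adjustment). The groups of both genes did not overlap, whereas Upf1, the helicase at the centre of the pathway, gave 0.22 ± 0.09 and did not pass. Of the 10 decay factors, 1 was higher and 3 lower with no overlap, beside 19.6% and 19.8% of all tested genes. Smg6 and Upf2 lost the call without replicate 1 of either label and without replicate 2 labelled Pgam ASO, with adjusted p up to 0.0873 and 0.0878 (edgeR with Benjamini-Hochberg adjustment).

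Over all 50 genes of these lists, 11 were called higher and 2 lower by edgeR with Benjamini-Hochberg adjustment, beside 8.03% and 9.15% of all tested genes, and 42 of 50 were above 0 with a median of 0.25. These counts leaned on single libraries. Without replicate 2 labelled Pgam ASO, 0 were called higher and 0 lower, beside 1.03% of all genes tested there called higher. Without replicate 1 labelled scrambled ASO or Pgam ASO, 1 was called higher, beside 1.45% and 2.10%, and without replicate 3 labelled Pgam ASO 22 were, beside 10.2%. Over the whole table the number of calls in either direction went from 2565 to 391 without replicate 2 labelled Pgam ASO.

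Small RNAs without a poly(A) tail that are not members by symbol were nearly all at 0. Of 14 such Ensembl entries, among them Rpph1, the Y RNA genes and repeated entries of Rmrp and Rprl1, 12 were at 0 throughout. The exceptions were Rnu73b, with 45, 27 and 21 counts against 37, 23 and 48, and Rnu12, with 4 counts in all.

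Markers of the cells were read in the same libraries. CD4 T cell markers summed to 3454, 3741 and 3250 CPM against 2756, 2920 and 3051, led by Cd4, with 0 of 9 markers at 0. By edgeR with Benjamini-Hochberg adjustment 0 of the 9 rose and 2 fell, beside 8.03% and 9.15% of all tested genes, and 8 of the 9 were lower with no overlap, beside 19.8%. Cd28 fell by 0.66 (SE 0.09, adjusted p = 0.00183, same test) and passed in 6 of 6 fits with a library left out, and Trac fell by 0.30 (SE 0.09, adjusted p = 0.0416, same test) and passed in 2. Treg markers summed to 3029, 2886 and 3331 CPM against 3722, 3750 and 3378, led by Il2ra, the only one of the 5 with a log2 fold change above 0. By edgeR with Benjamini-Hochberg adjustment Il2ra rose by 0.52 ± 0.12 (adjusted p = 0.0185), and Foxp3, the defining Treg factor, fell by 1.41 on the log2 scale (SE 0.20, adjusted p = 0.00567). Ikzf2 fell by 0.57 (SE 0.17, adjusted p = 0.0484, same test), and Ctla4 and Tnfrsf18 did not pass. Foxp3 kept its call in 6 of 6 fits with a library left out, Il2ra in 3 and Ikzf2 in 2. B cell markers summed to 329, 458 and 222 CPM against 85.3, 120 and 150, mostly Ighm, and NK cell markers to 54.9, 34.3 and 57.4 against 34.1, 30.8 and 26.6, mostly Eomes, with Klrb1c at 0. Of the 6 B cell markers, 4 log2 fold changes were below 0 and 2 above, from -1.58 to 1.24. By edgeR with Benjamini-Hochberg adjustment 0 of the 6 rose and 1 fell (Ighm), beside 8.03% and 9.15% of all tested genes. DESeq2 called 1 higher and 2 lower (10.4% and 11.1%). Of the 2 tested NK cell markers, Eomes fell by 0.82 and was called lower by edgeR, and the other gave 0.83 and did not pass. Markers of other cells were low. Those of CD8 T cells, led by Cd8b1, summed to at most 15.7 CPM in a library, those of mast cells and basophils, led by Kit, to at most 7.37, and those of erythroid cells, led by Hba-a1 and with Hba-a2 at 0, to at most 1.78. Signs were mixed within these lists. Cd8a rose by 1.12 (adjusted p = 0.0286, edgeR with Benjamini-Hochberg adjustment) while Cd8b1 gave -0.20, and Kit fell by 1.68 (adjusted p = 0.0142, same test) while Cpa3 gave 1.09 and did not pass. The libraries labelled Pgam ASO were above all others for Cpa3, Mcpt8 and Fcer1a, at no more than 2.55, 0.994 and 0.513 CPM. With a library left out, the calls of Cd8a and Kit each held in 4 of 6 fits. Myeloid markers, led by Lyz2, summed to 3.27 ± 0.638 against 3.45 ± 0.274 CPM (SD, n = 3 each). Mitochondrially encoded RNA was 19259, 20644 and 19437 CPM against 12758, 14668 and 13082. The part of these differences in the values of the small RNAs, hosts and core proteins was not tested.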

How the data were processed

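The 6 RNA-seq libraries carry the label scrambled ASO (3) or Pgam ASO (3). The authors deposited estimated counts per Ensembl gene, made with Kallisto and given as whole numbers. The submitters' processing notes name GRCm38, and the Kallisto version and annotation release are not given in the sources used here. Symbols were found for 52073 of 56748 genes. Hosts, lengths and shared 31-base stretches come from GENCODE M21, which may not be the annotation used for counting, and start sites from RefSeq on GRCm38.p6. Of the columns, 0 were left out.

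Groups were compared with edgeR 4.0.16 in R 4.3.3, with filterByExpr defaults, TMM scaling, the robust quasi-likelihood test (two-sided) and Benjamini-Hochberg adjustment at 0.05 over 14936 genes. On simulated counts with 200 of 14936 genes changed by a factor of 2, the share of them called in the true direction was 56.5% for edgeR, whose false calls made up 7.38% of all it made, against 61% and 14.1% for DESeq2 and 54% and 9.24% for limma-voom. Alternatives were DESeq2 1.42.0, limma-voom (limma 3.58.1), RLE size factors, library size alone, no filter, a minimum of 10 counts per library, a block for the replicate number, omission of each library, and members summed with the gene that shares most of their sequence.

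Genes named by rule were all tested long hosts, the 10 small RNAs with most counts and any called, the 8 core proteins and called pathway genes, hosts of named small RNAs, members next to the count threshold, Pgam1, Pgam2 and the markers. Among the small RNAs with most counts, 1 is not reported here, with its host, and both remain in the totals. Any further gene was named with its values in view. The members and lists were chosen with earlier results of these data known.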

Additional observations from a re-analysis of the deposited data

How the results depend on the processing

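Counts of members moved with the tool and the filter, and the cause was not tested. With DESeq2, 2 long hosts, 2 small RNAs and 5 protein-coding hosts were called higher, beside 10.4% of all tested genes. Without a filter on low counts, 4 long hosts, 2 small RNAs, 7 protein-coding hosts and 18 pathway genes were called higher, with 1832 genes higher in the whole table, against 1199 with the filter. Limma-voom and library size alone each called 0 small RNAs, since Snora57 gave adjusted p values of 0.0503 and 0.0504 there with Benjamini-Hochberg adjustment (0.0450 with edgeR and TMM, and from 0.0311 to 0.160 over all alternatives). Chosen after seeing the data, the sum of each member with the gene that shares most of its 31-base stretches gave 1 long host called higher, Snhg3 with Gm17300, and 2 small RNAs, Snora57 and Snora15, the latter counted with the far more abundant Cct6a. The planned sum of each small RNA with the long host that holds it was not run, since 0 small RNA members lie in a long host member.

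Leaving out 1 library at a time gave from 160 to 1711 genes called higher in the whole table, from 231 to 1773 lower and from 391 to 3484 in all. The ranges were 0 to 4 for long hosts called higher, 0 to 2 for small RNAs called higher, 0 to 7 and 0 to 1 for protein-coding hosts called higher and lower, and 0 to 22 and 0 to 3 for pathway genes called higher and lower. In the whole table the lowest counts came without replicate 2 labelled Pgam ASO and the highest without replicate 3 labelled scrambled ASO. Long hosts, small RNAs and pathway genes called higher were most without replicate 3 labelled Pgam ASO. Tsr1, Ipo7 and Tpt1 lost their calls without replicate 1 of either label or replicate 2 labelled Pgam ASO. The log2 ratios of summed CPM ran from 0.31 to 0.43 for small RNAs and from 0.15 to 0.37 for long hosts, and were 0.34 and 0.23 with library size alone.

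With replicate number as a block, 1235 genes were called, 480 higher and 755 lower, with 0 small RNAs higher (Snora57 had an adjusted p of 0.0973 with Benjamini-Hochberg adjustment), 1 protein-coding host higher and 0 lower, and 4 pathway genes higher. Same-numbered libraries of the 2 labels had correlations of deviations from the group mean of 0.0534, -0.0340 and -0.237, and not every library went best with its own number. Deviations from the mean of so few libraries are tied to each other, so these correlations cannot show whether equal numbers share an animal or culture. The labels do not say so either. With the block, log2 fold changes that turned sign were -0.01 for Snhg10, -0.04 for Snora31, 0.02 for Snord72 and 0.01 for Snora41.

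Signs turned only for genes with values near 0 or few counts, and the cause was not tested. With limma-voom these were 0.00 for Snhg8, -0.04 for Snhg10, -0.10 for Snora31, 0.06 for Snord72 and 0.18 for Snora41. With library size alone they were -0.02 for Snhg5, -0.02 for Snhg10 and -0.03 for Srcap, and Ap1g1 gave 0.00 with DESeq2, 0.00 with RLE size factors and 0.01 without a filter. With 1 library left out, log2 fold changes of named members crossed 0 for Snhg5 (-0.05 to 0.13), Snhg8 (-0.14 to 0.20), Snhg14 (-0.14 to 0.23), Snhg10 (-0.31 to 0.32), Snora31 (-0.59 to 0.43), Snord72 (-0.35 to 0.29), Snora30 (-0.08 to 0.92) and Snora41 (-0.59 to 0.20). Among other named genes they did so for Srcap (-0.12 to 0.21), Eef1b2 (-0.07 to 0.04), Ap1g1 (-0.04 to 0.02), Zfas1 (-0.02 to 0.15), Dancr (-0.09 to 0.32) and the markers Tnfrsf18 (-0.18 to 0.10), Ms4a1 (-0.58 to 0.04), Cd79b (-0.48 to 0.05), Fcer1g (-0.02 to 1.38) and Hba-a1 (-0.35 to 0.21). In the settings other than leaving out a library, 161 of 184 values of named members and 434 of 493 of the other named genes kept direction and side of the threshold. With a library left out, 111 of 144 and 293 of 426 did.

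Small RNAs had at most 65 counts in a library, and these libraries cannot show the level of the mature RNAs.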
